A study of Mus musculus with 18 samples.

Results

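The genes described here are the Wnt ligands, their receptors and their modulators in fibroblasts sorted from mouse paws, 60 of the 32285 genes in the deposited count table. They were taken by symbol: 19 Wnt ligands, the ligand acyltransferase Porcn, 10 frizzled receptors, 4 co-receptors (Lrp5, Lrp6, Ror1 and Ror2), 9 genes of the R-spondin axis, 11 secreted inhibitors and 6 intracellular genes. RNA was sequenced in 18 libraries, 3 in each of 6 groups, all from wild-type mice. Cells of naive mice were given FGF2 (10 ng/mL), a growth factor that drives fibroblast division, together with OPN (osteopontin, 50 ng/mL), a secreted matrix protein that binds integrins, or FGF2 alone, OPN alone or no factor. Cells of mice with arthritis induced by K/BxN serum (STIA), a joint inflammation driven by transferred antibodies, received OPN or no factor. Stimulation lasted 3 days; the culture time of unstimulated cells, the age and sex of the mice and whether replicates came from separate mice are not stated in the labels, so p-values measure only the spread between these libraries.

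Wnt proteins are lipid-modified ligands that bind frizzled receptors together with Lrp5 or Lrp6, which stabilises beta-catenin and activates genes through Tcf and Lef factors, or signal without beta-catenin through receptors such as Ror2. R-spondins bind Lgr receptors and keep the ubiquitin ligases Znrf3 and Rnf43 from removing frizzleds, which raises Wnt sensitivity. Some Dkk proteins, such as Dkk2, block Lrp5 and Lrp6, and Sfrp proteins bind the ligands themselves. In joints the pathway is known for its part in joint formation, bone mass and cartilage upkeep, and synovial fibroblasts are a known source of several of its ligands and inhibitors.

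The start-proximal sequences of 4 members that a group of libraries set well apart in the values below are shown, 1 receptor, 1 ligand and 2 secreted inhibitors, because a pathway response element near the start would lie there. Each is the 250 bases before the transcription start that RefSeq gives (GRCm38.p6), read 5′ to 3′ on the gene's own strand. Lgr6 lies on the minus strand (chr1:135105277-135105526), Wnt16 on the plus strand (chr6:22287977-22288226), Sfrp2 on the plus strand (chr3:83766071-83766320) and Frzb on the minus strand (chr2:80447397-80447646). Capitals mark a match to the core letters that Tcf and Lef factors recognise, CTTTGA, on either strand.
Lgr6: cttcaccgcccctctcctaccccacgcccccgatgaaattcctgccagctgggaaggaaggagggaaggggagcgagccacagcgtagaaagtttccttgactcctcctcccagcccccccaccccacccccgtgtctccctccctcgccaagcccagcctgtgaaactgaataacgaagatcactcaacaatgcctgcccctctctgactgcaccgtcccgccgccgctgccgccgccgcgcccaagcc
Wnt16: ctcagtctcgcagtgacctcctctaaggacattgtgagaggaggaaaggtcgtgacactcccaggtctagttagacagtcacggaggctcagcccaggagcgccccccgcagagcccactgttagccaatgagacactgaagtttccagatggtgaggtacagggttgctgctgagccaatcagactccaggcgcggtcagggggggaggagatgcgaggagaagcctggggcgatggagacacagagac
Sfrp2: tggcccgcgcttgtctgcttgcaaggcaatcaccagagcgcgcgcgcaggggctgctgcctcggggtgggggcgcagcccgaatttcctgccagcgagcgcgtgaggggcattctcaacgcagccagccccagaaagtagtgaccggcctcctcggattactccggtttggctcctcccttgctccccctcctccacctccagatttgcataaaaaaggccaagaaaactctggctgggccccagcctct
Frzb: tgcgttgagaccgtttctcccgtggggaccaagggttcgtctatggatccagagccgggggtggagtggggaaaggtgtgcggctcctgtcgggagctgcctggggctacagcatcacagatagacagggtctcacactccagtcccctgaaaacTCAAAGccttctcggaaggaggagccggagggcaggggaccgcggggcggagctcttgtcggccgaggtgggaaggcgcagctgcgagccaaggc
Among these 4 windows only that of Frzb, a secreted Wnt antagonist, held the core, as its reverse complement beginning 95 bases before the start. The gene coordinates deposited with the counts start Frzb at chr2:80447625, inside its window, so by them the core lies within the gene. The RefSeq table held windows for 39 of the 60 members. The core was in 7 of their 47 windows (14.9%), against 13.8% of all 32851 windows of that length. The AP-1 letters TGANTCA, the class of site bound by Fos and Jun proteins, were in 2 of the 47 (4.26%) and in 6.75% of all windows. These are letter matches in short windows and describe sequence only.

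Library totals ran from 27527043 to 40357342 counts, and the members took between 0.146% and 0.288% of each library. A floor of 3 counts, which covers counting error only, was 0.0753 to 0.110 CPM (counts scaled by library size and TMM factor) per library. Of the 60 members 49 passed the filter on low counts and were tested with all 15072 genes. The other 11 (Rspo4, Dkk4, Sfrp5, Wnt1, Wnt3, Wnt3a, Wnt6, Wnt7a, Wnt8a, Wnt8b and Wnt9b) had 1 to 27 counts in total over the 18 libraries and at most 0.234 CPM in any. The library farthest from its group over all genes was FGF2 replicate 2 (root mean square distance 0.277 on the log2 scale, others 0.196 to 0.242), and over the tested members OPN replicate 3 (0.370, others 0.1501 to 0.328). All 11 fibroblast markers checked (such as Col1a1, Pdgfra, Thy1 and Prg4) averaged at least 1 CPM in every group. Of the macrophage markers checked, Ptprc, Adgre1, C1qa and C1qb averaged at most 0.156 CPM. The other macrophage markers had higher top group means: 43.8 CPM for Cd14 and 6.71 CPM for Mrc1, both in FGF2 cells. In OPN cells Lyz2 averaged 9.999 CPM and Csf1r 3.13 CPM, and in FGF2 plus OPN cells Cd68 averaged 3.99 CPM. The labels do not state the strand setting of the counting. In the annotation 8 members share exon bases with a gene on the opposite strand, and how reads there were assigned is not known. The largest shares are 29.4% for Notum and 16.1% for Sfrp2.

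Levels of different genes were compared per kilobase of exon (mean CPM per kb ± SD, n = 3). In unstimulated naive cells the secreted inhibitors were the most abundant class: Dkk3, a divergent Dickkopf protein, stood at 153 ± 5.85 CPM per kb, followed by Sfrp1 at 49.05 ± 1.17 CPM per kb. Fzd1 (45.00 ± 1.27 CPM per kb) and Fzd2 (41.1 ± 2.37 CPM per kb) came next, with overlapping libraries. The top ligand was Wnt16 at 12.2 ± 0.548 CPM per kb, ahead of Wnt5a at 8.91 ± 0.3402 CPM per kb without overlap. In FGF2 cells the R-spondin receptor Lgr6 (38.4 ± 1.87 CPM per kb) and the Lrp antagonist Dkk2 (37.7 ± 0.701 CPM per kb) overlapped at the top, above Dkk3 at 22.8 ± 7.28 CPM per kb. In FGF2 cells the leading ligand was Wnt5a at 15.8 ± 1.31 CPM per kb, and Wnt16 stood at 0.2095 ± 0.0557 CPM per kb. In each of the other 4 groups Dkk3 was highest. Wnt5a led the ligands in STIA OPN cells and unstimulated STIA cells and Wnt16 in FGF2 plus OPN cells, while in OPN cells the libraries of Wnt5a (10.4 ± 0.463 CPM per kb) and Wnt16 (8.94 ± 2.05 CPM per kb) overlapped.

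The summed level of the secreted inhibitors spread more among the groups than that of the ligands. Its median over the 3 libraries was 211 CPM per kb in FGF2 plus OPN cells, 71.7 CPM per kb in FGF2 cells and 324 CPM per kb in OPN cells. It was 124 CPM per kb in STIA OPN cells, 92.4 CPM per kb in unstimulated STIA cells and 237 CPM per kb in unstimulated naive cells. The ligand sum kept between 26.9 and 36.6 CPM per kb in every library. The frizzled sum had a median of 66.6 CPM per kb in FGF2 cells and lay between 99.0 and 137 CPM per kb in all other libraries.

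**Figure D1:**
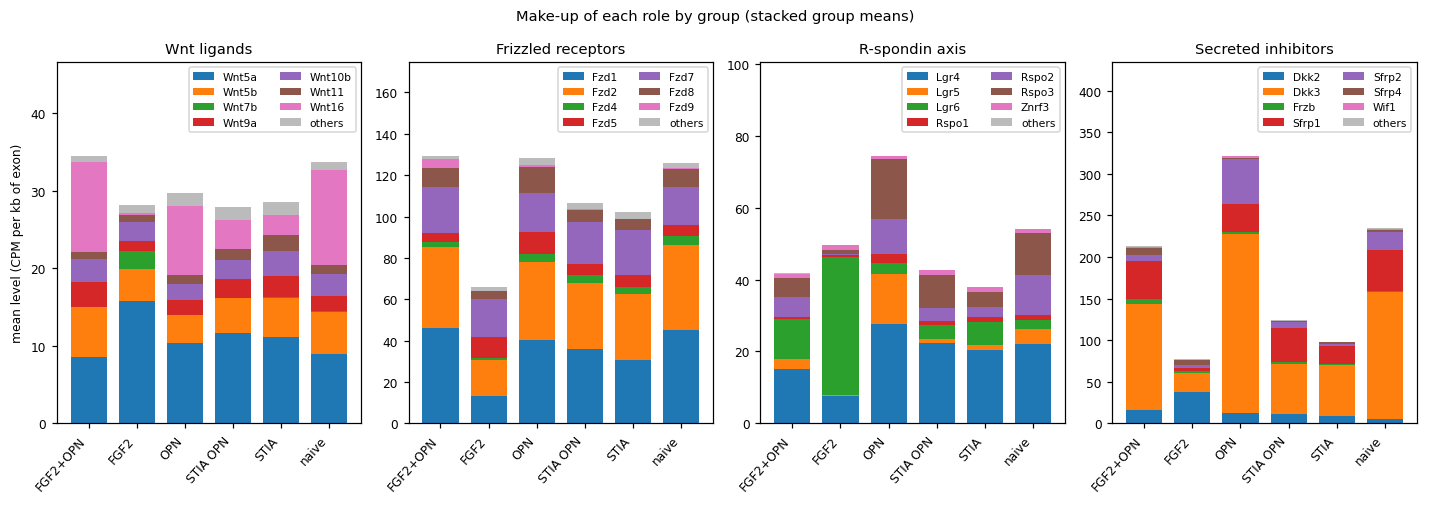
Stacked bars give the group mean level (CPM per kb of exon, linear axis from 0, 3 libraries per group) of the members of 4 roles, with the 7 highest of each role in colour and the rest in grey. The inhibitor and frizzled bars are lowest in FGF2 cells, and Lgr6 makes up most of the R-spondin axis bar there (77.5%).

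Because all values are from bulk RNA, fewer cells of a type and less RNA per cell cannot be told apart in any comparison. With FGF2 alone 7 of 10 frizzleds, the tested R-spondins and several inhibitors fell. Against unstimulated naive cells 15 of 49 rose and 29 fell in FGF2 cells (edgeR quasi-likelihood test, adjusted p below 0.05), where 57.1% of all genes tested were called, 29.1% higher and 28.1% lower. Frizzleds leaned lower (1 rose and 7 fell of 10), as did the R-spondin axis (2 and 5 of 8), the ligands (3 and 6 of 11) and the co-receptors (1 and 3 of 4). The secreted inhibitors split (5 and 4 of 9), and so did the intracellular genes (3 and 3 of 6). The median log2 fold change was -0.65 over the 49 and 0.01 over all genes.

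With OPN alone, R-spondin axis genes, Fzd5 and Dkk2 rose, and Porcn, Ror2 and Wnt16 fell. In OPN cells 14 of 49 rose and 8 fell against unstimulated naive cells. Of all genes tested 31.7% were called there, 15.2% higher and 16.5% lower. The median log2 fold change was 0.05 (0.02 with Dkk1, which had no count in unstimulated naive cells, at its bound) and that of all genes was 0.00. Calls of at least 1 on the log2 scale either way were made for 6 members with OPN (4.09% of all genes) and for 29 with FGF2 (19.9% of all genes). Of the R-spondin axis 4 of 8 rose with OPN (Lgr4, Lgr5, Rspo1 and Rspo3), and of the frizzleds 3 of 10 (Fzd5, Fzd8 and Fzd9). Without OPN replicate 3 the split over the 49 was 11 higher and 10 lower. Without OPN replicate 2 it was 14 higher and 5 lower.

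With both factors 12 of 49 rose and 13 fell against unstimulated naive cells (49.8% of all genes called). Set against FGF2 alone, 27 rose and 11 fell in FGF2 plus OPN cells (58.4% called, 27.3% higher and 31.2% lower); set against OPN alone, 17 rose and 18 fell (56.5% called). With library totals in place of TMM the median change over all tested genes, on the log2 scale, was 0.136 for FGF2 plus OPN against unstimulated naive cells and 0.118 against OPN cells (-0.01 in each with TMM), and the splits became 16 higher with 10 lower and 20 higher with 14 lower. These comparisons share libraries, so their counts are given side by side only.

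**Figure D2:**
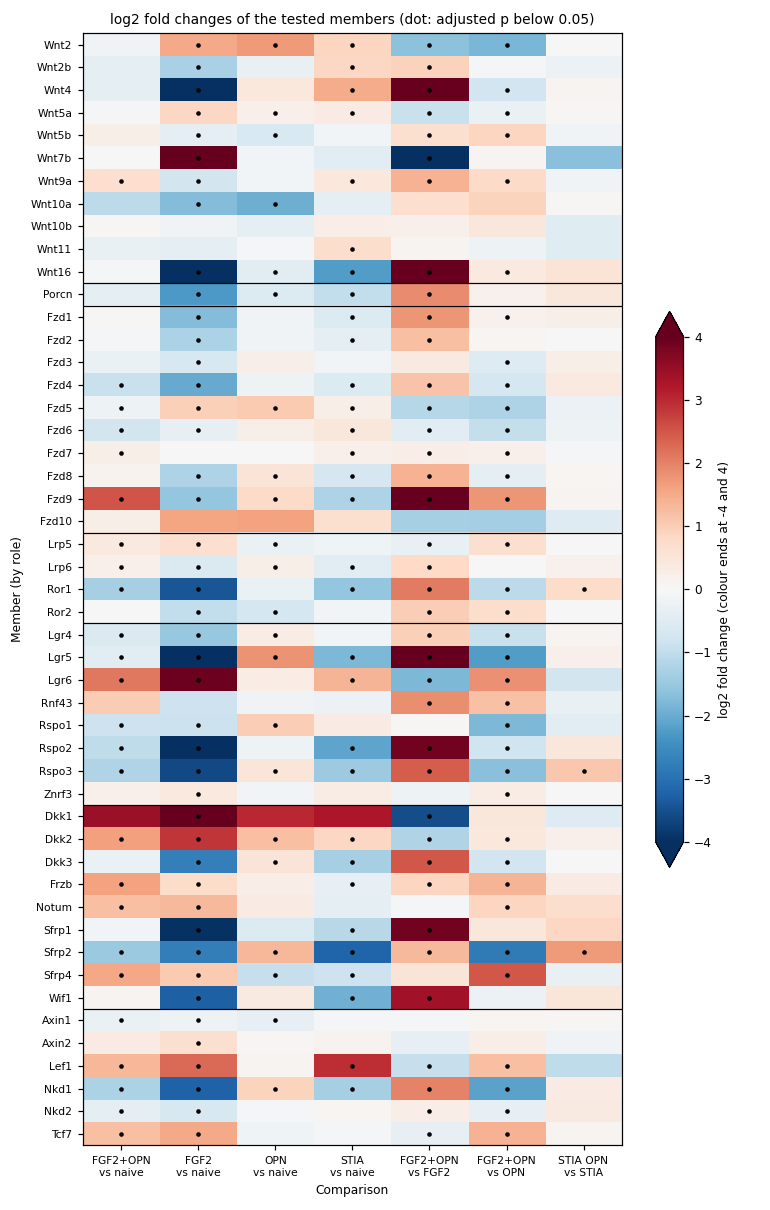
Each cell is the fitted log2 fold change (colour, ending at -4 and 4) of a tested member (rows, grouped by role) in 7 comparisons (columns), and a dot marks an adjusted p below 0.05. The FGF2 column has 44 dots and the STIA OPN column has 3; colours of Dkk1 against naive cells rest on 0 counts there and are no estimate of size.

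Markers of other cells also moved with FGF2, where 57.1% of all genes tested were called. The summed level of 9 macrophage markers was 53.9 to 56.6 CPM in FGF2 cells and 14.2 to 15.5 CPM in unstimulated naive cells, most of it Cd14 (mean 43.8 CPM in FGF2 cells and 6.03 CPM in unstimulated naive cells). Of the 5 tested macrophage markers 3 rose and 2 fell with FGF2; 3 of the 9 averaged at least 1 CPM in FGF2 cells and 4 in unstimulated naive cells, and Ptprc and Adgre1 stayed at most 0.156 CPM. Of the 7 pericyte and smooth muscle markers 1 rose and 5 fell with FGF2. The one that rose was Rgs5, with a mean of 41.1 CPM in FGF2 cells and 2.23 CPM in unstimulated naive cells, while Notch3 averaged 7.40 CPM in FGF2 cells and 22.9 CPM in unstimulated naive cells. The 7 summed to 259.9 to 364.4 CPM in FGF2 cells and 311 to 329 CPM in unstimulated naive cells. Of the 6 tested endothelial markers 4 rose (Kdr, Plvap, Cdh5 and Pecam1) and Tek fell with FGF2. Kdr averaged 9.08 CPM in FGF2 cells and 1.03 CPM in unstimulated naive cells, and Pecam1 0.281 CPM in FGF2 cells and 0.0925 CPM in unstimulated naive cells. The 7 endothelial markers, of which 4 averaged at least 1 CPM in FGF2 cells and 2 in unstimulated naive cells, summed to 19.7 to 26.1 CPM in FGF2 cells and 11.4 to 13.8 CPM in unstimulated naive cells. The 11 fibroblast markers summed to 22162 to 24442 CPM in FGF2 cells and 71526 to 80547 CPM in unstimulated naive cells, with Col1a1 at a mean of 4067 CPM in FGF2 cells and 36971 CPM in unstimulated naive cells. Of the 11, 6 fell with FGF2, among them Col1a1, and 3 rose (Pdpn, Vim and Pdgfra). The fibroblast sum was lower than in unstimulated naive cells in the other groups too. It was 52704 to 61600 CPM in OPN cells and 30188 to 36487 CPM in FGF2 plus OPN cells. In STIA cells it was 61111 to 65460 CPM with OPN and 51126 to 57290 CPM unstimulated. Of the 11 markers 0 rose and 6 fell with OPN (31.7% of all genes called). With both factors 5 rose and 5 fell (49.8%), and in unstimulated STIA cells 2 rose and 7 fell (36.8%). The part of these shifts in the results was not tested.

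Members that averaged at least 5 CPM in a group and were called with a log2 fold change of at least 1 either way in 1 or more of the 7 comparisons between 2 groups are given below with the value of every library. There were 24 of them. Fold changes are on the log2 scale, ± SE, from the edgeR quasi-likelihood fit, with p-values adjusted over all genes tested (Benjamini-Hochberg). Where a call was lost in some of the other settings tried (scalings, filters, tools, a library left out), this is said beside it.

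Among the ligands, Wnt16, a regulator of cortical bone mass in mice, was lowest in FGF2 cells. Wnt16 stood at 46.5, 54.9 and 50.4 CPM in FGF2 plus OPN cells, 0.733, 1.19 and 0.818 CPM in FGF2 cells and 39.3, 29.8 and 47.8 CPM in OPN cells. Its level was 16.6, 18.1 and 14.8 CPM in STIA OPN cells, 11.8, 9.86 and 12.5 CPM in unstimulated STIA cells and 53.7, 50.8 and 55.5 CPM in unstimulated naive cells. The 3 FGF2 libraries lay far below all others, the STIA libraries were intermediate, and FGF2 plus OPN libraries overlapped unstimulated naive libraries. Wnt16 fell with FGF2 (log2 fold change -5.86 ± 0.19, adjusted p = 2.26e-15) and was higher with both factors than with FGF2 alone (log2 fold change 5.79 ± 0.19, adjusted p = 8.91e-15). With both factors it was not called against unstimulated naive cells (log2 fold change -0.08 ± 0.13, adjusted p = 0.638). Wnt16 fell with OPN alone (log2 fold change -0.46 ± 0.13, adjusted p = 0.00962), a call lost in 1 of 14 other settings, that with only the compared groups in the fit.

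Wnt7b, a ligand known to promote bone formation, had the opposite pattern. Wnt7b stood at 0.377, 0.665 and 0.537 CPM in FGF2 plus OPN cells, 9.87, 15.9 and 9.39 CPM in FGF2 cells and 1.005, 0.258 and 0.1004 CPM in OPN cells. Its level was 0.147, 0.112 and 0.0991 CPM in STIA OPN cells, 0.386, 0.437 and 0.3196 CPM in unstimulated STIA cells and 0.5996, 0.567 and 0.382 CPM in unstimulated naive cells. The 3 FGF2 libraries lay above all others, and FGF2 plus OPN libraries overlapped unstimulated naive ones. Wnt7b rose with FGF2 (log2 fold change 4.49 ± 0.38, adjusted p = 3.05e-09) and was lower with both factors than with FGF2 alone (log2 fold change -4.49 ± 0.38, adjusted p = 3.44e-09). On the opposite strand another gene covers 6.61% of its exon bases.

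Wnt9a, which marks developing synovial joints, differed less. Its level was 11.3, 11.8 and 9.03 CPM in FGF2 plus OPN cells, 3.83, 4.63 and 3.73 CPM in FGF2 cells and 7.66, 6.05 and 4.92 CPM in OPN cells. It stood at 7.81, 8.33 and 8.69 CPM in STIA OPN cells, 8.46, 9.28 and 9.44 CPM in unstimulated STIA cells and 6.66, 6.201 and 7.47 CPM in unstimulated naive cells. FGF2 libraries were the lowest, and FGF2 plus OPN libraries overlapped only the unstimulated STIA ones. Wnt9a fell with FGF2 (log2 fold change -0.74 ± 0.15, adjusted p = 2.21e-04) and rose with both factors (log2 fold change 0.66 ± 0.14, adjusted p = 4.29e-04).

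Wnt5a, a ligand of Ror receptors, averaged 66.8 ± 5.32 CPM in FGF2 plus OPN cells, 123 ± 10.2 CPM in FGF2 cells, 81.04 ± 3.62 CPM in OPN cells and 69.7 ± 2.66 CPM in unstimulated naive cells (SD, n = 3 each). Wnt5a rose with FGF2 (log2 fold change 0.82 ± 0.07, adjusted p = 5.44e-10) and was lower with both factors than with FGF2 alone (log2 fold change -0.88 ± 0.07, adjusted p = 2.52e-10). Its relative Wnt5b averaged 17.01 ± 2.88 CPM in FGF2 plus OPN cells, 10.8 ± 1.03 CPM in FGF2 cells, 9.43 ± 0.677 CPM in OPN cells and 14.4 ± 0.581 CPM in unstimulated naive cells. Wnt5b fell with FGF2 (log2 fold change -0.41 ± 0.11, adjusted p = 0.00309) and with OPN (log2 fold change -0.61 ± 0.11, adjusted p = 2.24e-04), so the related ligands moved apart under FGF2.

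The other tested ligands were scarcer. Wnt2 rose with FGF2 (log2 fold change 1.51 ± 0.27, adjusted p = 4.60e-05) and with OPN (log2 fold change 1.70 ± 0.26, adjusted p = 4.33e-05), at group means between 0.623 and 2.22 CPM. Wnt2b fell with FGF2 (log2 fold change -1.28 ± 0.35, adjusted p = 0.00361), with means of 0.502 ± 0.0935 CPM in FGF2 cells and 1.23 ± 0.258 CPM in unstimulated naive cells. Wnt4 had 1 count over the 3 FGF2 libraries and 60 over the 3 unstimulated naive libraries, a ratio of 0.0158 with an exact 95% interval of 0.000395 to 0.0917 that covers counting error only. Wnt10a, at 0.1302 ± 0.122 CPM in FGF2 cells and 0.439 ± 0.0834 CPM in unstimulated naive cells, fell with FGF2 (log2 fold change -1.74 ± 0.63, adjusted p = 0.0213), a call lost without FGF2 replicate 2 (-1.30) or 3 (-1.53) or unstimulated naive replicate 3 (-1.60), while without FGF2 replicate 1 the fold change was -2.73. Wnt11 was not called with FGF2 (log2 fold change -0.39 ± 0.21, adjusted p = 0.124). Wnt10b, at group means of 7.08 to 11.1 CPM, and the receptor Fzd10 were the 2 tested members that no comparison between 2 groups called.

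Porcn, the enzyme that attaches the lipid to Wnt ligands, was also lowest in FGF2 cells. Porcn stood at 8.36, 10.1 and 11.8 CPM in FGF2 plus OPN cells, 2.500, 3.27 and 2.302 CPM in FGF2 cells and 10.3, 5.77 and 11.01 CPM in OPN cells. Its level was 8.43, 9.75 and 8.79 CPM in STIA OPN cells, 6.500, 7.31 and 6.001 CPM in unstimulated STIA cells and 12.8, 14.5 and 12.1 CPM in unstimulated naive cells. The FGF2 libraries did not overlap any other group, and unstimulated naive libraries were the highest. Porcn fell with FGF2 (log2 fold change -2.29 ± 0.20, adjusted p = 4.40e-09) and was higher with both factors than with FGF2 alone (log2 fold change 1.90 ± 0.21, adjusted p = 1.04e-07). It fell with OPN (log2 fold change -0.55 ± 0.18, adjusted p = 0.0242), a call lost without OPN replicate 2 (-0.30) or unstimulated naive replicate 2 (-0.47) and with only the compared groups in the fit (-0.54).

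**Figure D3:**
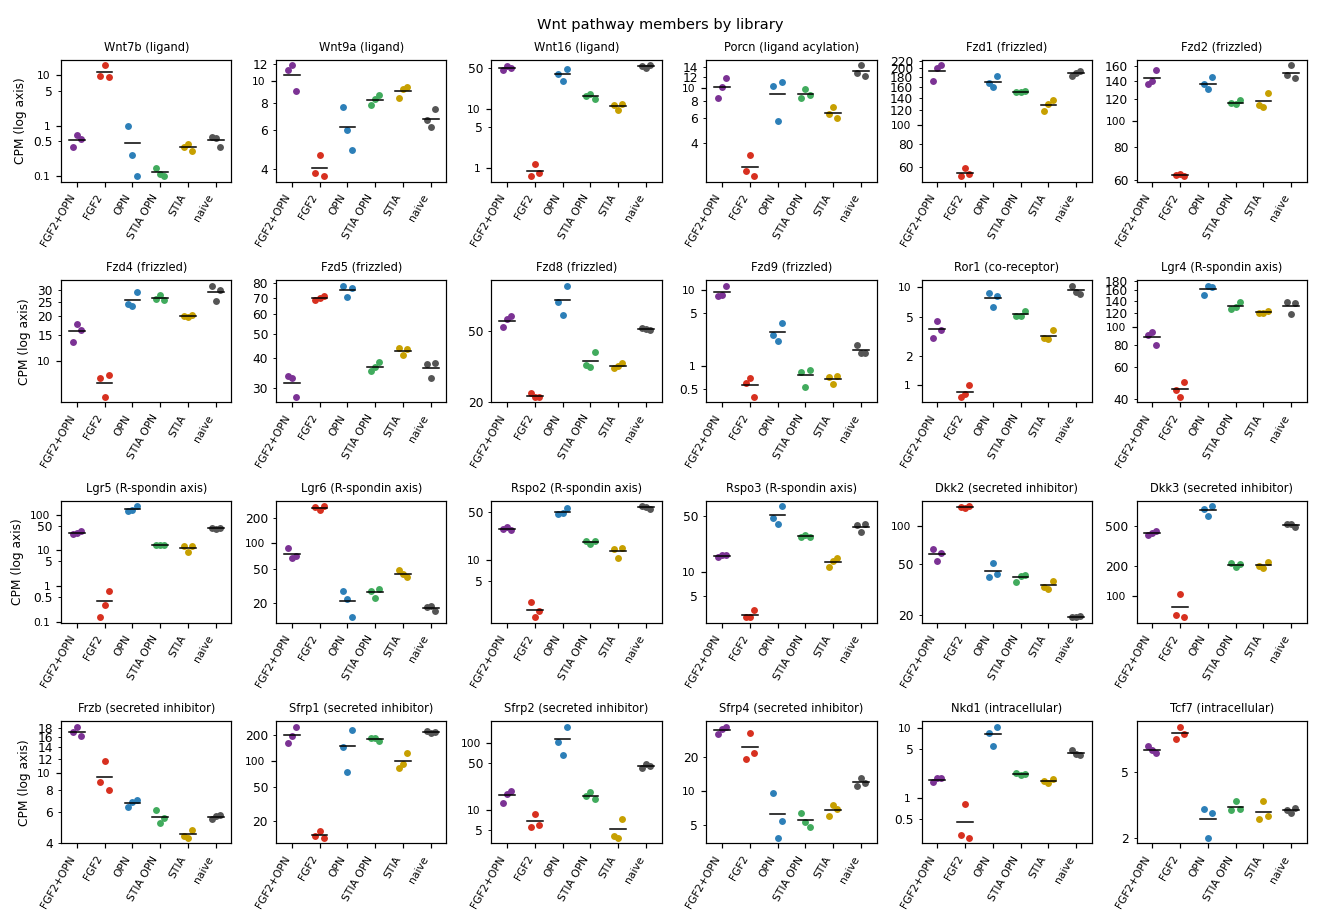
Points are CPM (log axis, different range in each panel) of the 24 members in each library, in 6 groups of 3 with the group mean as a line; the groups named STIA and naive are unstimulated. FGF2 libraries are the lowest group for Wnt16, Lgr5, Rspo2 and Sfrp1 and the highest for Wnt7b, Lgr6 and Dkk2.

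Among the frizzled receptors, which bind the Wnt ligands, Fzd1, Fzd2, Fzd4 and Fzd8 fell with FGF2 while Fzd5 rose. Fzd1 stood at 172, 200.4 and 208 CPM in FGF2 plus OPN cells, 53.9, 59.7 and 55.3 CPM in FGF2 cells and 168, 159 and 183 CPM in OPN cells. Its level was 150.0, 149.5 and 153 CPM in STIA OPN cells, 119, 129.8 and 136 CPM in unstimulated STIA cells and 183, 189.7 and 194 CPM in unstimulated naive cells. The FGF2 libraries lay under every other library. Fzd1 fell with FGF2 (log2 fold change -1.75 ± 0.07, adjusted p = 1.98e-15) and was higher with both factors than with FGF2 alone (log2 fold change 1.78 ± 0.07, adjusted p = 4.92e-15), and with both factors it was not called against unstimulated naive cells (log2 fold change 0.03 ± 0.07, adjusted p = 0.721).

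Fzd2, a close relative of Fzd7, stood at 137, 140.2 and 154 CPM in FGF2 plus OPN cells, 62.6, 63.6 and 62.2 CPM in FGF2 cells and 136, 131 and 145 CPM in OPN cells. Its level was 116, 115 and 119 CPM in STIA OPN cells, 114, 112 and 127 CPM in unstimulated STIA cells and 148, 160.4 and 144 CPM in unstimulated naive cells. As for Fzd1, the FGF2 libraries were the lowest and overlapped no other group. Fzd2 fell with FGF2 (log2 fold change -1.26 ± 0.06, adjusted p = 5.02e-14) and was higher with both factors than with FGF2 alone (log2 fold change 1.19 ± 0.06, adjusted p = 3.29e-13). Fzd7 itself averaged 83.7 ± 9.49 CPM in FGF2 cells and 84.5 ± 4.88 CPM in unstimulated naive cells and was not called (log2 fold change -0.01 ± 0.06, adjusted p = 0.886).

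Fzd4, also the receptor of Norrin, stood at 13.5, 17.8 and 16.1 CPM in FGF2 plus OPN cells, 7.73, 5.78 and 8.06 CPM in FGF2 cells and 24.2, 23.3 and 29.01 CPM in OPN cells. Its level was 26.02, 27.7 and 25.8 CPM in STIA OPN cells, 19.97, 19.8 and 20.5 CPM in unstimulated STIA cells and 31.8, 25.2 and 30.1 CPM in unstimulated naive cells. FGF2 libraries were lowest, and FGF2 plus OPN libraries lay between them and the other groups. Fzd4 fell with FGF2 (log2 fold change -2.01 ± 0.12, adjusted p = 2.08e-12) and with both factors (log2 fold change -0.88 ± 0.11, adjusted p = 1.11e-06).

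Fzd5 rose with either factor alone. Fzd5 stood at 33.7, 33.2 and 27.8 CPM in FGF2 plus OPN cells, 68.7, 69.6 and 71.1 CPM in FGF2 cells and 78.1, 70.6 and 76.4 CPM in OPN cells. Its level was 35.1, 36.7 and 38.2 CPM in STIA OPN cells, 43.9, 40.97 and 43.3 CPM in unstimulated STIA cells and 37.5, 33.03 and 37.97 CPM in unstimulated naive cells. FGF2 and OPN libraries stood together above all others, while FGF2 plus OPN libraries overlapped the unstimulated naive ones. Fzd5 rose with FGF2 (log2 fold change 0.95 ± 0.07, adjusted p = 9.60e-11) and with OPN (log2 fold change 1.05 ± 0.07, adjusted p = 7.76e-10). The interaction, the FGF2 effect with OPN minus that without, was -2.20 ± 0.10 (adjusted p = 1.13e-13) on the log2 scale.

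Fzd8, the closest relative of Fzd5, stood at 52.4, 57.7 and 60.05 CPM in FGF2 plus OPN cells, 22.3, 21.4 and 21.4 CPM in FGF2 cells and 71.9, 61.01 and 88.8 CPM in OPN cells. Its level was 32.3, 31.3 and 37.8 CPM in STIA OPN cells, 30.8, 31.7 and 33.1 CPM in unstimulated STIA cells and 51.9, 50.99 and 50.3 CPM in unstimulated naive cells. FGF2 libraries were the lowest group and OPN libraries the highest. Fzd8 fell with FGF2 (log2 fold change -1.24 ± 0.10, adjusted p = 5.88e-10) and rose with OPN (log2 fold change 0.53 ± 0.10, adjusted p = 2.55e-04), so Fzd5 and Fzd8 both rose with OPN and moved apart with FGF2.

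Fzd9 was highest when both factors were present. Fzd9 stood at 8.39, 8.58 and 11.2 CPM in FGF2 plus OPN cells, 0.5999, 0.694 and 0.394 CPM in FGF2 cells and 2.51, 2.14 and 3.71 CPM in OPN cells. Its level was 0.843, 0.531 and 0.892 CPM in STIA OPN cells, 0.716, 0.582 and 0.746 CPM in unstimulated STIA cells and 1.89, 1.49 and 1.49 CPM in unstimulated naive cells. The FGF2 plus OPN libraries exceeded every other library. Fzd9 fell with FGF2 (log2 fold change -1.54 ± 0.28, adjusted p = 7.13e-05) and rose with both factors (log2 fold change 2.52 ± 0.21, adjusted p = 2.30e-09). It rose with OPN (log2 fold change 0.76 ± 0.23, adjusted p = 0.0134), a call lost without OPN replicate 3 (0.51) or unstimulated naive replicate 2 (0.70) or 3 (0.70). Its interaction was 3.30 ± 0.34 (adjusted p = 4.98e-08) on the log2 scale. The scarcer Fzd3 fell with FGF2 (log2 fold change -0.65 ± 0.17, adjusted p = 0.00211), and so did Fzd6 (log2 fold change -0.32 ± 0.12, adjusted p = 0.0276), a call lost with library totals (-0.23) and without FGF2 replicate 2 (-0.24) or unstimulated naive replicate 1 (-0.27) or 3 (-0.30).

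Of the co-receptors, Ror1, a receptor for Wnt5a, stood at 3.01, 4.52 and 3.66 CPM in FGF2 plus OPN cells, 0.767, 0.826 and 0.999 CPM in FGF2 cells and 8.82, 6.31 and 8.13 CPM in OPN cells. Its level was 5.13, 5.08 and 5.75 CPM in STIA OPN cells, 3.06, 2.95 and 3.66 CPM in unstimulated STIA cells and 10.4, 8.97 and 8.65 CPM in unstimulated naive cells. FGF2 libraries were the lowest and overlapped no other group. Ror1 fell with FGF2 (log2 fold change -3.42 ± 0.19, adjusted p = 3.36e-13) and with both factors (log2 fold change -1.33 ± 0.15, adjusted p = 2.52e-07). Ror2, its relative, averaged 46.5 ± 2.29 CPM in FGF2 plus OPN cells, 23.4 ± 1.83 CPM in FGF2 cells, 28.7 ± 3.03 CPM in OPN cells and 46.6 ± 1.48 CPM in unstimulated naive cells. Ror2 fell with FGF2 (log2 fold change -0.99 ± 0.08, adjusted p = 2.72e-10) and with OPN (log2 fold change -0.70 ± 0.08, adjusted p = 7.36e-07) and was not called with both factors (adjusted p = 0.971). Lrp5 and Lrp6, the co-receptors of beta-catenin signalling, moved apart with FGF2: Lrp5 rose (log2 fold change 0.68 ± 0.08, adjusted p = 6.86e-08) and Lrp6 fell (log2 fold change -0.59 ± 0.07, adjusted p = 3.99e-07).

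The R-spondin receptors split. Lgr5, known as a stem cell receptor in the gut, stood at 28.1, 30.1 and 34.3 CPM in FGF2 plus OPN cells, 0.133, 0.297 and 0.727 CPM in FGF2 cells and 129, 134 and 172 CPM in OPN cells. Its level was 13.96, 14.1 and 13.8 CPM in STIA OPN cells, 13.7, 9.28 and 13.2 CPM in unstimulated STIA cells and 41.9, 40.9 and 42.2 CPM in unstimulated naive cells. OPN libraries were the highest and FGF2 libraries the lowest, neither overlapping another group. Lgr5 fell with FGF2 (log2 fold change -6.70 ± 0.25, adjusted p = 1.34e-13), and without FGF2 replicate 3 the fold change was -7.57. Lgr5 rose with OPN (log2 fold change 1.80 ± 0.14, adjusted p = 7.84e-08). With both factors Lgr5 fell (log2 fold change -0.44 ± 0.14, adjusted p = 0.0164), a call lost with library totals (-0.30) and without FGF2 plus OPN replicate 1 (-0.37) or 2 (-0.42). Against FGF2 alone it was higher with both factors (log2 fold change 6.27 ± 0.26, adjusted p = 1.03e-12), or 7.13 without FGF2 replicate 3.

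Lgr6, an R-spondin receptor of the same family, stood at 87.3, 67.3 and 71.8 CPM in FGF2 plus OPN cells, 268, 249 and 273 CPM in FGF2 cells and 27.5, 22.2 and 13.4 CPM in OPN cells. Its level was 27.7, 22.7 and 28.6 CPM in STIA OPN cells, 48.3, 43.9 and 39.5 CPM in unstimulated STIA cells and 17.7, 18.4 and 15.8 CPM in unstimulated naive cells. FGF2 libraries were the highest, FGF2 plus OPN libraries came next, and OPN libraries overlapped unstimulated naive ones. Lgr6 rose with FGF2 (log2 fold change 3.93 ± 0.20, adjusted p = 3.09e-10) and with both factors (log2 fold change 2.12 ± 0.19, adjusted p = 5.22e-07), and was lower with both than with FGF2 alone (log2 fold change -1.80 ± 0.18, adjusted p = 7.24e-07). Per kilobase Lgr6 made up on average 26.3% of the summed R-spondin axis in FGF2 plus OPN cells, 77.5% in FGF2 cells and 4.68% in unstimulated naive cells.

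Lgr4, the broadly expressed R-spondin receptor, stood at 90.4, 94.5 and 79.5 CPM in FGF2 plus OPN cells, 45.03, 41.2 and 49.9 CPM in FGF2 cells and 151, 169 and 166 CPM in OPN cells. Its level was 126, 129 and 137 CPM in STIA OPN cells, 119, 120.1 and 123 CPM in unstimulated STIA cells and 138, 118 and 136 CPM in unstimulated naive cells. It was lowest in FGF2 libraries and next lowest in FGF2 plus OPN libraries, neither overlapping the others. Lgr4 fell with FGF2 (log2 fold change -1.53 ± 0.08, adjusted p = 8.27e-14) and with both factors (log2 fold change -0.57 ± 0.08, adjusted p = 1.80e-06) and rose with OPN (log2 fold change 0.31 ± 0.07, adjusted p = 0.00324).

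The 3 tested R-spondins, the ligands of these receptors, fell with FGF2. Rspo2 stood at 28.6, 30.02 and 27.04 CPM in FGF2 plus OPN cells, 2.500, 1.52 and 1.85 CPM in FGF2 cells and 45.7, 47.6 and 56.6 CPM in OPN cells. Its level was 18.7, 17.1 and 19.2 CPM in STIA OPN cells, 14.5, 10.7 and 15.2 CPM in unstimulated STIA cells and 59.5, 58.4 and 54.8 CPM in unstimulated naive cells. FGF2 libraries were lowest, and FGF2 plus OPN libraries lay between them and the unstimulated naive ones without overlap. Rspo2 fell with FGF2 (log2 fold change -4.88 ± 0.15, adjusted p = 3.23e-17) and with both factors (log2 fold change -1.01 ± 0.11, adjusted p = 9.92e-08).

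Rspo3, which shares 13.1% of its exon bases with a gene on the opposite strand, stood at 15.2, 16.3 and 16.3 CPM in FGF2 plus OPN cells, 2.800, 2.74 and 3.36 CPM in FGF2 cells and 47.6, 39.9 and 65.7 CPM in OPN cells. Its level was 27.7, 29.2 and 27.4 CPM in STIA OPN cells, 11.4, 13.9 and 15.02 CPM in unstimulated STIA cells and 38.5, 31.4 and 39.3 CPM in unstimulated naive cells. The order of the FGF2, FGF2 plus OPN and unstimulated naive libraries was that of Rspo2, again without overlap. Rspo3 fell with FGF2 (log2 fold change -3.61 ± 0.17, adjusted p = 9.26e-13) and with both factors (log2 fold change -1.19 ± 0.14, adjusted p = 1.24e-06). It rose with OPN (log2 fold change 0.48 ± 0.13, adjusted p = 0.0103), a call lost without OPN replicate 3 (0.26) or unstimulated naive replicate 2 (0.39) and with only the compared groups in the fit. Rspo1 was scarcer, at group means of 1.31 to 4.77 CPM, and rose with OPN (log2 fold change 0.98 ± 0.22, adjusted p = 0.00135) and fell with FGF2 (log2 fold change -0.87 ± 0.24, adjusted p = 0.00416). Of the ubiquitin ligases that remove frizzleds, Znrf3 rose with FGF2 (log2 fold change 0.39 ± 0.12, adjusted p = 0.00693) and Rnf43 was not called (log2 fold change -0.82 ± 0.64, adjusted p = 0.281), at 0.107 ± 0.0351 CPM in FGF2 cells and 0.196 ± 0.0951 CPM in unstimulated naive cells.

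Dkk2 and Dkk3, relatives among the secreted inhibitors, changed in opposite directions with FGF2. Dkk2, which binds Lrp5 and Lrp6, stood at 65.7, 52.9 and 61.3 CPM in FGF2 plus OPN cells, 141, 137 and 142 CPM in FGF2 cells and 40.03, 51.3 and 42.3 CPM in OPN cells. Its level was 36.5, 40.6 and 41.4 CPM in STIA OPN cells, 33.4, 31.9 and 37.00 CPM in unstimulated STIA cells and 19.5, 19.2 and 19.6 CPM in unstimulated naive cells. Every other group lay above the unstimulated naive libraries, and FGF2 libraries were the highest. Dkk2 rose with FGF2 (log2 fold change 2.85 ± 0.09, adjusted p = 3.23e-17), with OPN (log2 fold change 1.20 ± 0.09, adjusted p = 2.43e-09) and with both factors (log2 fold change 1.63 ± 0.09, adjusted p = 1.78e-12).

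Dkk3, the most abundant member per kilobase in unstimulated naive cells, stood at 412, 429.9 and 445 CPM in FGF2 plus OPN cells, 64.2, 105 and 60.8 CPM in FGF2 cells and 754, 629.9 and 794 CPM in OPN cells. Its level was 213, 196 and 207 CPM in STIA OPN cells, 199.8, 189.8 and 218 CPM in unstimulated STIA cells and 522, 526 and 490.3 CPM in unstimulated naive cells. FGF2 libraries were lowest and OPN libraries highest. Dkk3 fell with FGF2 (log2 fold change -2.74 ± 0.16, adjusted p = 2.85e-10). It rose with OPN (log2 fold change 0.50 ± 0.15, adjusted p = 0.0168), a call lost without OPN replicate 1 (0.47) or 3 (0.43) or unstimulated naive replicate 3 (0.47). Dkk1, the best known antagonist of the family, had 47 counts over the FGF2 libraries and 0 over the unstimulated naive libraries, which makes it at least 14.9-fold higher in FGF2 cells with a floor of 3 counts over the group.

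Sfrp1 and Sfrp2, decoys that bind Wnt ligands, fell with FGF2, while their relatives Frzb and Sfrp4 rose. Sfrp1 stood at 159, 194 and 245 CPM in FGF2 plus OPN cells, 13.5, 15.1 and 12.7 CPM in FGF2 cells and 142, 74.1 and 224 CPM in OPN cells. Its level was 181, 183 and 168 CPM in STIA OPN cells, 81.5, 91.1 and 124 CPM in unstimulated STIA cells and 220.2, 210.3 and 213 CPM in unstimulated naive cells. FGF2 libraries were lowest, and the OPN libraries spread over a range that overlapped every group but FGF2. Sfrp1 fell with FGF2 (log2 fold change -3.96 ± 0.35, adjusted p = 3.69e-07) and was not called with both factors (log2 fold change -0.11 ± 0.30, adjusted p = 0.787).

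Sfrp2, of whose exon bases 16.1% lie opposite another gene, stood at 12.8, 17.5 and 19.3 CPM in FGF2 plus OPN cells, 5.599, 8.63 and 5.91 CPM in FGF2 cells and 106, 67.8 and 177 CPM in OPN cells. Its level was 16.1, 18.5 and 14.4 CPM in STIA OPN cells, 4.08, 3.78 and 7.39 CPM in unstimulated STIA cells and 43.3, 49.1 and 45.8 CPM in unstimulated naive cells. OPN libraries were the highest and spread widely, and FGF2 and unstimulated STIA libraries were the lowest. Sfrp2 rose with OPN (log2 fold change 1.34 ± 0.30, adjusted p = 0.00445), a call lost with only the compared groups in the fit. Sfrp2 fell with FGF2 (log2 fold change -2.78 ± 0.35, adjusted p = 1.38e-05) and with both factors (log2 fold change -1.49 ± 0.32, adjusted p = 0.00171).

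Frzb stood at 16.98, 18.2 and 16.2 CPM in FGF2 plus OPN cells, 8.799, 11.6 and 7.93 CPM in FGF2 cells and 6.404, 6.82 and 7.03 CPM in OPN cells. Its level was 6.16, 5.196 and 5.52 CPM in STIA OPN cells, 4.38, 4.26 and 4.72 CPM in unstimulated STIA cells and 5.46, 5.67 and 5.73 CPM in unstimulated naive cells. FGF2 plus OPN libraries were highest and FGF2 libraries next, with no overlap. Frzb rose with FGF2 (log2 fold change 0.75 ± 0.12, adjusted p = 1.83e-05) and with both factors (log2 fold change 1.61 ± 0.12, adjusted p = 3.13e-10).

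Sfrp4, another Wnt-binding decoy, stood at 32.7, 35.9 and 37.5 CPM in FGF2 plus OPN cells, 19.3, 32.9 and 21.8 CPM in FGF2 cells and 9.67, 3.81 and 5.35 CPM in OPN cells. Its level was 6.41, 5.31 and 4.76 CPM in STIA OPN cells, 5.98, 7.46 and 6.96 CPM in unstimulated STIA cells and 11.1, 13.1 and 11.9 CPM in unstimulated naive cells. The FGF2 and FGF2 plus OPN libraries overlapped each other and lay above all others. Sfrp4 rose with FGF2 (log2 fold change 1.03 ± 0.25, adjusted p = 0.00259) and with both factors (log2 fold change 1.55 ± 0.25, adjusted p = 1.15e-04). It fell with OPN (log2 fold change -0.93 ± 0.27, adjusted p = 0.0175), a call lost without OPN replicate 2 (-0.66) or 3 (-0.83) or unstimulated naive replicate 2 (-0.86) and with only the compared groups in the fit. Wif1, a secreted Wnt binder of another family, fell with FGF2 (log2 fold change -3.25 ± 0.30, adjusted p = 2.23e-09) at group means of 0.326 to 3.99 CPM. Notum, the enzyme that removes the lipid from Wnt ligands, averaged 3.08 ± 0.688 CPM in FGF2 cells and 1.27 ± 0.472 CPM in unstimulated naive cells and rose with FGF2 (log2 fold change 1.29 ± 0.29, adjusted p = 6.20e-04), with 29.4% of its exon bases opposite another gene.

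Of the intracellular members, Nkd1, an antagonist that binds dishevelled, stood at 1.68, 1.93 and 1.93 CPM in FGF2 plus OPN cells, 0.3000, 0.826 and 0.273 CPM in FGF2 cells and 8.49, 5.67 and 10.4 CPM in OPN cells. Its level was 2.31, 2.15 and 2.25 CPM in STIA OPN cells, 1.76, 1.67 and 1.88 CPM in unstimulated STIA cells and 4.83, 4.25 and 4.13 CPM in unstimulated naive cells. OPN libraries were highest and FGF2 libraries lowest. Nkd1 fell with FGF2 (log2 fold change -3.24 ± 0.29, adjusted p = 1.24e-09), with a fold change of -3.93 without FGF2 replicate 2, and rose with OPN (log2 fold change 0.89 ± 0.20, adjusted p = 0.00209). Its relative Nkd2 also fell with FGF2 (log2 fold change -0.65 ± 0.11, adjusted p = 2.13e-05).

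Tcf7, a transcription factor of the pathway, stood at 7.11, 6.72 and 6.48 CPM in FGF2 plus OPN cells, 7.799, 9.25 and 8.39 CPM in FGF2 cells and 2.99, 2.01 and 2.81 CPM in OPN cells. Its level was 2.93, 3.32 and 2.97 CPM in STIA OPN cells, 2.62, 3.35 and 2.699 CPM in unstimulated STIA cells and 2.97, 2.83 and 3.02 CPM in unstimulated naive cells. The libraries with FGF2, alone or with OPN, lay above all others. Tcf7 rose with FGF2 (log2 fold change 1.53 ± 0.15, adjusted p = 4.50e-09) and with both factors (log2 fold change 1.20 ± 0.15, adjusted p = 5.05e-07). Lef1, its relative, averaged 1.09 ± 0.109 CPM in FGF2 cells and 0.229 ± 0.109 CPM in unstimulated naive cells and rose with FGF2 (log2 fold change 2.25 ± 0.47, adjusted p = 2.56e-04), with 13.7% of its exon bases opposite another gene. Axin2, a widely used readout of beta-catenin activity, averaged 7.34 ± 2.55 CPM in FGF2 cells and 4.65 ± 0.727 CPM in unstimulated naive cells, with overlapping libraries. Axin2 rose with FGF2 (log2 fold change 0.65 ± 0.21, adjusted p = 0.00984), a call lost without FGF2 replicate 2 (0.35) or unstimulated naive replicate 2 (0.54). Axin1, the scaffold of the beta-catenin destruction complex, fell with FGF2 (log2 fold change -0.21 ± 0.06, adjusted p = 0.00350), a call lost with library totals (-0.13).

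The FGF2 effect differed with OPN for 38 of 49 members by the interaction term, 28 higher and 10 lower (51.2% of all genes called). FGF2 was compared in separate libraries, FGF2 plus OPN against OPN and FGF2 against unstimulated naive cells. Of the 29 members that fell with FGF2 alone, 15 also fell when OPN was present, 6 rose (Fzd1, Fzd9, Ror2, Wnt16, Wnt5b and Wnt9a) and 8 were not called; of the 4230 genes of the whole table that fell with FGF2 alone, 45.5% fell and 18.5% rose with OPN present. In that comparison the rise of Wnt16 (log2 fold change 0.38 ± 0.13, adjusted p = 0.0151) was lost without OPN replicate 2 (0.22) or FGF2 plus OPN replicate 2 (0.32), and that of Fzd1 (log2 fold change 0.19 ± 0.07, adjusted p = 0.0260) in 5 of 14 other settings, 4 of them without OPN replicate 1 (0.18) or 2 (0.14) or FGF2 plus OPN replicate 2 (0.16) or 3 (0.13). Of the 15 that rose with FGF2 alone, 9 also rose with OPN present, 3 fell (Fzd5, Wnt2 and Wnt5a, the last not called with library totals, at -0.15) and 3 were not called; of the 4379 genes of the whole table that rose with FGF2 alone, 44.6% rose and 17.7% fell with OPN present.

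Wnt16 had the highest interaction of the 24 members, 6.24 ± 0.24 (adjusted p = 1.31e-13) on the log2 scale, where FGF2 gave 0.38 ± 0.13 with OPN and -5.86 ± 0.19 without. The interaction was 4.47 ± 0.33 (adjusted p = 4.56e-09) for Lgr5, or 5.33 without FGF2 replicate 3. It was 4.40 ± 0.45 (adjusted p = 3.31e-06) for Sfrp1 and 4.07 ± 0.18 (adjusted p = 1.61e-13) for Rspo2. Negative interactions were those of Wnt7b at -4.38 ± 0.65 (adjusted p = 1.29e-05), or -3.05 without OPN replicate 1, of Dkk2 at -2.42 ± 0.12 (adjusted p = 4.57e-13) and of Lgr6 at -2.09 ± 0.27 (adjusted p = 1.38e-05). For Sfrp2 and Tcf7 the interaction was not called (-0.05 ± 0.47, adjusted p = 0.945, and -0.14 ± 0.21, adjusted p = 0.584), which does not show that FGF2 acted alike in both settings.

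**Figure D4:**
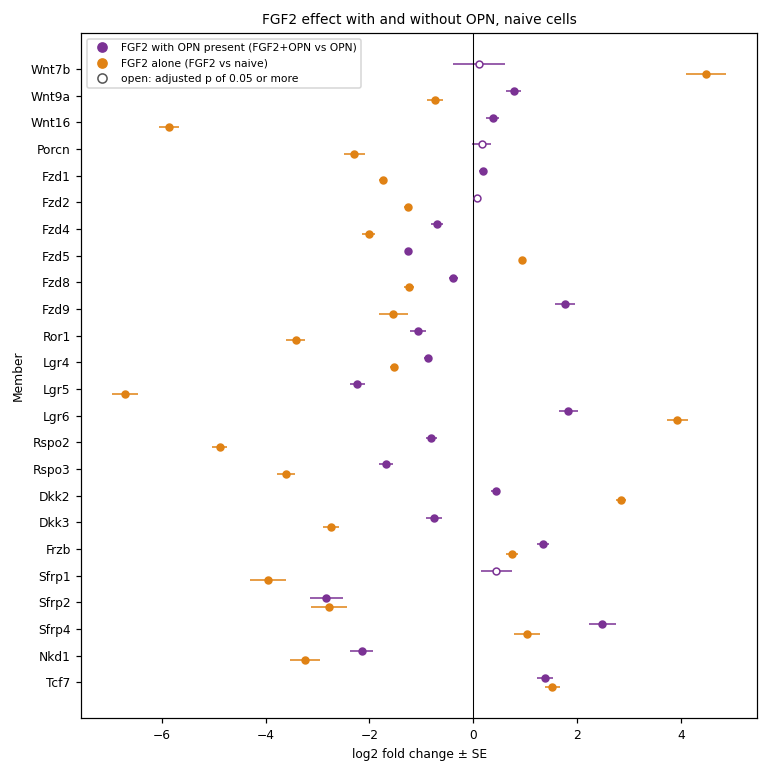
Points are the log2 fold change for FGF2 in naive cells with OPN present (FGF2 plus OPN against OPN) and FGF2 alone (against unstimulated), with bars of 1 SE, for the 24 members; open points have an adjusted p of 0.05 or more. For Wnt16, Lgr5, Rspo2 and Sfrp1 the point with OPN lies far to the right of that without, and for Wnt7b, Dkk2 and Lgr6 it lies to the left.

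In unstimulated cells of arthritic mice Rspo2, Rspo3, the Sfrp decoys and Wnt16 were lower than in naive cells. There 6 other ligands, the receptor Lgr6 and the inhibitor Dkk2 were higher. Of these calls, those of Sfrp4, Wnt9a, Wnt2 and Wnt2b were lost in some runs that left out 1 library. In unstimulated STIA cells 12 of 49 members rose and 19 fell against unstimulated naive cells (36.8% of all genes called, 18.6% higher and 18.2% lower). For 14 members the call was at least 1 on the log2 scale either way (5.61% of all genes). Of the 9 tested secreted inhibitors 6 fell and 1 rose, of the 10 frizzleds 5 fell and 3 rose, and of the 11 tested ligands 6 rose and 1 fell. The ligand that fell was Wnt16 (log2 fold change -2.22 ± 0.14, adjusted p = 1.16e-09). Among the inhibitors Sfrp2 (log2 fold change -3.19 ± 0.36, adjusted p = 2.33e-05), Sfrp1 (log2 fold change -1.12 ± 0.30, adjusted p = 0.0109), Dkk3 (log2 fold change -1.34 ± 0.15, adjusted p = 6.09e-06) and Wif1 (log2 fold change -1.93 ± 0.26, adjusted p = 4.88e-06) fell, and Dkk2 rose (log2 fold change 0.81 ± 0.09, adjusted p = 5.34e-07).

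The R-spondins that fell with STIA were Rspo2 (log2 fold change -2.10 ± 0.11, adjusted p = 5.96e-11) and Rspo3 (log2 fold change -1.44 ± 0.15, adjusted p = 5.31e-07). Their receptor Lgr5 fell (log2 fold change -1.79 ± 0.15, adjusted p = 1.57e-07) while Lgr6 rose (log2 fold change 1.34 ± 0.19, adjusted p = 1.08e-04). Falls were also called for Ror1 (log2 fold change -1.54 ± 0.16, adjusted p = 1.69e-07), Porcn (log2 fold change -0.99 ± 0.18, adjusted p = 2.96e-04), Nkd1 (log2 fold change -1.31 ± 0.23, adjusted p = 1.38e-04) and Fzd9 (log2 fold change -1.25 ± 0.28, adjusted p = 0.00116). The ligand Wnt4 averaged 1.89 ± 0.121 CPM in unstimulated STIA cells and 0.671 ± 0.244 CPM in unstimulated naive cells and rose (log2 fold change 1.48 ± 0.28, adjusted p = 2.76e-04). Wnt11, a ligand known mainly for signalling without beta-catenin, averaged 8.23 ± 0.762 CPM in unstimulated STIA cells and 5.06 ± 0.315 CPM in unstimulated naive cells and rose (log2 fold change 0.70 ± 0.20, adjusted p = 0.00882). Lef1 averaged 1.78 ± 0.2196 CPM in unstimulated STIA cells and 0.229 ± 0.109 CPM in unstimulated naive cells and rose (log2 fold change 2.96 ± 0.45, adjusted p = 2.37e-05).

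Smaller calls in STIA cells depended on the setting. The fall of Frzb (log2 fold change -0.34 ± 0.13, adjusted p = 0.0499) was lost in 12 of 14 other settings, among them each of the 6 that left out 1 library (-0.38 to -0.31). The fall of Sfrp4 (log2 fold change -0.83 ± 0.27, adjusted p = 0.0283) was lost in 5 of 14, without any 1 of the unstimulated STIA libraries or unstimulated naive replicate 2 or 3 (-0.90 to -0.74). The rises of Wnt9a, Wnt2 and Wnt2b were lost in 4, 3 and 5 of 14 settings, each leaving out 1 library: for Wnt9a unstimulated STIA replicate 2 or 3 or unstimulated naive replicate 1 or 2 (0.36 to 0.40), for Wnt2 unstimulated STIA replicate 2 or unstimulated naive replicate 1 or 3 (0.67 to 0.80), and for Wnt2b any but unstimulated naive replicate 3 (0.73 to 0.86). The 4 skeletal muscle markers summed to 60.7 to 78.0 CPM in unstimulated STIA cells and 8.13 to 9.74 CPM in unstimulated naive cells. Acta1 averaged 65.3 CPM in unstimulated STIA cells and 6.30 CPM in unstimulated naive cells. Des averaged 2.39 CPM and 2.47 CPM in the same order, and Myh4 and Ckm at most 0.0236 CPM in both. The pericyte and smooth muscle markers summed to 355 to 424 CPM in unstimulated STIA cells and 311 to 329 CPM in unstimulated naive cells. The Schwann cell markers summed to 20.8 to 25.7 CPM in unstimulated STIA cells and 29.9 to 32.1 CPM in unstimulated naive cells. The part of these markers in the results was not tested.

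OPN raised Rspo3, Sfrp2 and Ror1 in STIA cells. Against unstimulated STIA cells 3 of 49 rose in STIA OPN cells and 0 fell by edgeR (2.17% of all genes called, 1.15% higher and 1.02% lower); 20 members had an unadjusted p below 0.05 in either direction, and DESeq2 called 7 higher and 1 lower. Rspo3 (log2 fold change 1.07 ± 0.15, adjusted p = 9.46e-04), Sfrp2 (log2 fold change 1.70 ± 0.38, adjusted p = 0.0373) and Ror1 (log2 fold change 0.73 ± 0.16, adjusted p = 0.0241) had every STIA OPN library above every unstimulated STIA library. The call of Sfrp2 was lost in 6 of 14 other settings, with limma-voom and without unstimulated STIA replicate 1 (1.55) or 2 (1.54) or any 1 STIA OPN library (1.59 to 1.78). That of Ror1 was lost in 5 of 14, without the same libraries (0.67 to 0.76). The call of Rspo3 was lost in 0 of 14. In naive cells Rspo3 and Sfrp2 were also called higher with OPN, and Ror1 was not called (log2 fold change -0.27 ± 0.15, adjusted p = 0.164). The skeletal muscle markers summed to 25.8 to 29.5 CPM in STIA OPN cells and 60.7 to 78.0 CPM in unstimulated STIA cells, and their part was not tested.

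The OPN effect differed between STIA and naive cells for 19 of 49 members, 12 with a more positive and 7 with a more negative change in STIA cells (22.3% of all genes called). That split was 10 and 9 with only the compared groups in the fit. It was 9 and 8 without naive OPN replicate 2 and 11 and 6 without naive OPN replicate 3. For 6 members the difference was called at 1 or more on the log2 scale either way (4.86% of all genes). On the log2 scale OPN gave Lgr5 0.21 ± 0.16 in STIA cells and 1.80 ± 0.14 in naive cells, a difference of -1.59 ± 0.21 (adjusted p = 4.68e-05). For Fzd5 it gave -0.22 ± 0.07 in STIA cells and 1.05 ± 0.07 in naive cells, a difference of -1.27 ± 0.10 (adjusted p = 2.02e-08). For Dkk2 the changes were 0.21 ± 0.09 in STIA cells and 1.20 ± 0.09 in naive cells, a difference of -0.99 ± 0.12 (adjusted p = 7.03e-06). In the other direction OPN gave Wnt16 0.53 ± 0.14 in STIA cells and -0.46 ± 0.13 in naive cells, a difference of 0.99 ± 0.19 (adjusted p = 9.55e-04). The difference was 1.00 ± 0.22 (adjusted p = 0.00208) for Ror1 and 0.99 ± 0.26 (adjusted p = 0.00857) for Porcn.

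**Figure D5:**
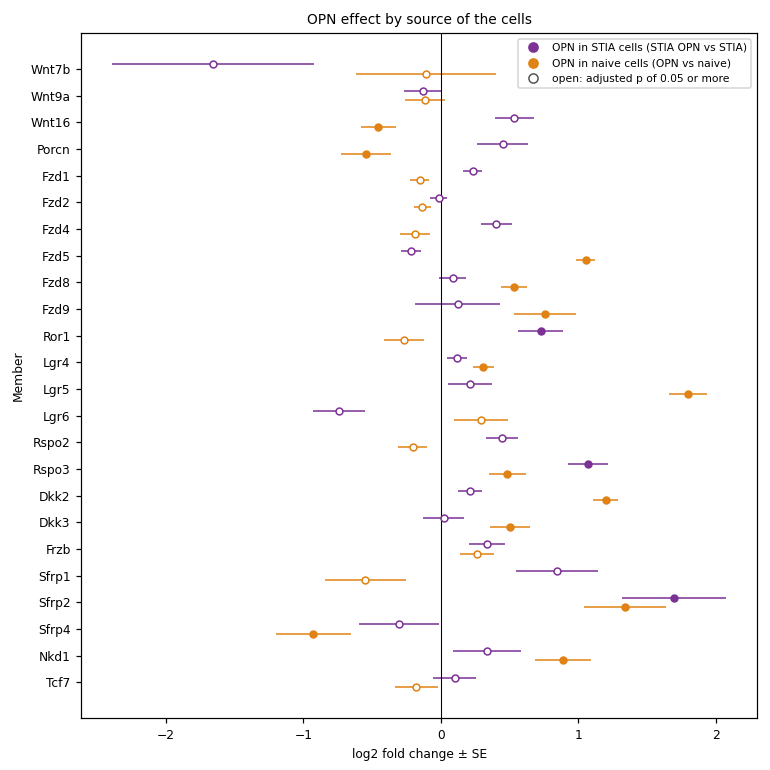
Points are the log2 fold change for OPN in STIA cells (STIA OPN against unstimulated STIA) and in naive cells (OPN against unstimulated naive), with bars of 1 SE, for the 24 members; open points have an adjusted p of 0.05 or more. Sfrp2 and Rspo3 are filled and right of 0 in both, and for Lgr5, Fzd5 and Dkk2 the point of naive cells lies to the right of that of STIA cells.

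Of 61 other Wnt pathway genes listed by role, 57 were tested. Against unstimulated naive cells 15 rose and 16 fell with both factors (49.8% of all genes called), 18 rose and 26 fell with FGF2 (57.1% of all genes called), and 9 rose and 19 fell with OPN (31.7% of all genes called). In unstimulated STIA cells 11 rose and 13 fell (36.8% of all genes called), and with OPN in STIA cells 1 rose (2.17% of all genes called), Dact1, an adaptor that binds dishevelled. Of the 14 tested genes for secretion and surface partners 10 fell with FGF2 and 3 rose. Wls, the carrier that brings Wnt ligands to the cell surface, averaged 181 ± 7.84 CPM in FGF2 cells and 332 ± 10.3 CPM in unstimulated naive cells and fell (log2 fold change -0.88 ± 0.05, adjusted p = 2.31e-12). Draxin, a secreted Wnt antagonist, averaged 9.99 ± 1.45 CPM in FGF2 plus OPN cells, 0.253 ± 0.123 CPM in FGF2 cells and 7.999 ± 0.8403 CPM in unstimulated naive cells and fell with FGF2 (log2 fold change -4.94 ± 0.30, adjusted p = 2.00e-12). Mest, which is known to hinder Lrp6 maturation, averaged 2.32 ± 0.4004 CPM in FGF2 cells, 94.99 ± 17.2 CPM in OPN cells and 47.1 ± 1.66 CPM in unstimulated naive cells. Mest fell with FGF2 (log2 fold change -4.34 ± 0.22, adjusted p = 2.24e-11) and rose with OPN (log2 fold change 1.01 ± 0.16, adjusted p = 1.81e-04).

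Of the 9 tested feedback and target genes outside the members, 4 rose and 4 fell with FGF2 (57.1% of all genes called). Ccnd1, a cell cycle gene that mitogens also induce, averaged 231 ± 23.9 CPM in FGF2 plus OPN cells, 1468 ± 19.9 CPM in FGF2 cells and 138 ± 1.08 CPM in unstimulated naive cells and rose with FGF2 (log2 fold change 3.41 ± 0.14, adjusted p = 2.29e-13). Ccn4, a matricellular target also known as Wisp1, averaged 49.7 ± 3.71 CPM in FGF2 plus OPN cells, 32.8 ± 2.73 CPM in FGF2 cells and 199 ± 10.5 CPM in unstimulated naive cells and fell with FGF2 (log2 fold change -2.60 ± 0.07, adjusted p = 1.82e-18). Dact1 fell with FGF2 (log2 fold change -4.16 ± 0.20, adjusted p = 3.68e-14) and was not called with both factors (log2 fold change -0.24 ± 0.14, adjusted p = 0.153).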

How the data were processed

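Fibroblasts sorted from paws were measured by paired-end RNA-seq in 18 libraries. The authors deposited raw read counts per gene; STAR, featureCounts and the GRCm38/mm10 build are named in the submitters' processing notes. Tool versions, the annotation release and the strand setting are not stated in those notes or the labels. Of 32285 gene IDs 32158 matched a GENCODE M21 symbol; the rest held 0.0294% of counts. Counts were fitted in R 4.3.3 with edgeR 4.0.16 (filterByExpr, TMM, robust quasi-likelihood, 1 coefficient per group, all 18 libraries), giving 15072 genes tested and a common biological coefficient of variation of 7.99%. P-values were adjusted over all genes (Benjamini-Hochberg, threshold 0.05). SE is the log2 fold change divided by the root of F. DESeq2 1.42.0, limma 3.58.1 (voom), other scalings and filters, the replicate block and leaving out each library were alternatives. The fits were tested on simulated data. Members given per library averaged at least 5 CPM in a group and were called with a log2 fold change of at least 1 in a comparison. The members and lists were chosen with earlier results of these data known. No pair of libraries of 1 group was identical or within sampling noise (chi-square per degree of freedom 4.42 to 40.7 over 18 pairs).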

Additional observations from a re-analysis of the deposited data

Results flagged for a closer look

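For 19 of the 49 tested members the change with OPN differed between STIA cells and naive cells by the difference term of the edgeR fit (22.3% of all genes did). Each value below is the OPN change in STIA cells minus that in naive cells on the log2 scale, with its SE and adjusted p; the 2 changes share no library.

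In the R-spondin axis Lgr5, Lgr6 and Rspo1 had the more negative change in STIA cells: the difference was -1.59 ± 0.21 (adjusted p = 4.68e-05) for Lgr5, -1.03 ± 0.27 (adjusted p = 0.0146) for Lgr6 and -1.43 ± 0.31 (adjusted p = 0.00190) for Rspo1. The other R-spondins went the other way, with 0.65 ± 0.16 (adjusted p = 0.00474) for Rspo2 and 0.58 ± 0.20 (adjusted p = 0.0409) for Rspo3. The OPN log2 fold change of Lgr6 was -0.74 ± 0.19 in STIA cells and 0.29 ± 0.20 in naive cells, neither of them called, and that of Rspo1 was -0.45 ± 0.22 in STIA cells, not called, and 0.98 ± 0.22 in naive cells, called.

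Among the receptors the difference was 1.00 ± 0.22 (adjusted p = 0.00208) for Ror1, 0.67 ± 0.11 (adjusted p = 1.42e-04) for Ror2, 0.39 ± 0.10 (adjusted p = 0.00644) for Fzd1 and 0.59 ± 0.16 (adjusted p = 0.00871) for Fzd4. It was -1.27 ± 0.10 (adjusted p = 2.02e-08) for Fzd5 and -0.45 ± 0.14 (adjusted p = 0.0242) for Fzd8, both of which rose with OPN in naive cells.

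Among ligands and their processing the difference was 0.99 ± 0.19 (adjusted p = 9.55e-04) for Wnt16, -1.68 ± 0.37 (adjusted p = 0.00223) for Wnt2, 0.47 ± 0.15 (adjusted p = 0.0331) for Wnt5b and 0.99 ± 0.26 (adjusted p = 0.00857) for Porcn. The OPN log2 fold change of Wnt2 was 0.02 ± 0.26 in STIA cells, not called, and 1.70 ± 0.26 in naive cells, called. Among inhibitors it was -0.99 ± 0.12 (adjusted p = 7.03e-06) for Dkk2 and 1.39 ± 0.42 (adjusted p = 0.0322) for Sfrp1, and among intracellular members 0.37 ± 0.08 (adjusted p = 0.00225) for Axin1 and 0.43 ± 0.15 (adjusted p = 0.0407) for Nkd2.

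The call was lost in 10 of 20 other settings for Rspo3, 9 of 20 for Sfrp1, 9 of 20 for Nkd2, 7 of 20 for Wnt5b and 5 of 20 for Fzd8, each leaving out 1 library except 1 for Rspo3 and 1 for Sfrp1, with only the compared groups in the fit. Over those settings the difference of Rspo3 was 0.44 to 0.61, that of Sfrp1 1.27 to 1.41, that of Nkd2 0.35 to 0.45, that of Wnt5b 0.41 to 0.47 and that of Fzd8 -0.43 to -0.29. For Fzd8 the value furthest from that of all libraries was the one without OPN replicate 3 (-0.29). The calls of the other 14 members held in all 20 other settings.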

How the results depend on the processing

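The count of members called for OPN in STIA cells was the count that moved most: against 3 by edgeR (3 higher), it was 14 without a filter on low counts (10 higher, 4 lower), 8 by DESeq2 (7 higher, 1 lower), 5 with the replicate block (4 higher, 1 lower) and 15 with only the compared groups in the fit (10 higher, 5 lower). Leaving out 1 library gave 1 to 4, with 1 in each run except that without unstimulated STIA replicate 3. The cause was not tested. The other 8 counts stayed within 1.5 times under every alternative run; leaving out 1 library gave 41 to 45 for FGF2, 15 to 21 for OPN, 22 to 26 for both factors, 35 to 38 for both against FGF2, 28 to 34 for both against OPN, 33 to 38 for the interaction, 25 to 28 for STIA and 14 to 18 for the difference of the OPN effects. Of the gene-level values recomputed, 6344 kept their side of the threshold, 254 lost a call and 105 gained one. None that was called in either fit reversed direction. The direction of values called in neither fit was not compared, and 2696 of the 6344 were not called in the main fit. The labels do not say whether a replicate number links libraries of different groups. Over 45 same-numbered pairs the correlation of deviations from the group means ran from -0.104 to 0.199, and 2 were above 0.1. With 3 libraries per group these correlations cannot decide whether a number marks a shared batch or animal. With the replicate block the counts were 44 for FGF2, 22 for OPN, 25 for both factors, 36 for both against FGF2, 35 for both against OPN, 37 for the interaction, 30 for STIA and 20 for the difference. Depth limits the scarcest members: the floor was 0.0753 to 0.110 CPM per library, the 11 untested genes had at most 0.234 CPM in any library, and changes in them were not detectable at this depth.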
